A study of Mus musculus with 4 samples.

Results

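Microglia near amyloid plaques can take on a disease-associated state (DAM), in which Trem2, Apoe and Cst7 are expressed and genes of the resting state are turned down. Trem2 encodes a lipid-sensing surface receptor of microglia, Apoe a lipid carrier, and Cst7 an inhibitor of lysosomal cathepsins. Cx3cr1, the fractalkine receptor through which neurons signal to microglia, is a marker of the homeostatic state, and its loss is a known feature of DAM. The cells described here had reads of the 3 DAM genes and no read of Cx3cr1. They were chosen by those reads, together with the absence of any read of Cd3e (a T cell receptor subunit), Cd79a (a B cell receptor subunit) or Ccr2 (a chemokine receptor of infiltrating monocytes). There were 683 such Cx3cr1-negative cells among 13820 kept cells of 21172 deposited cells, and a cell was kept if at least 40 panel genes had a read and its reads did not exceed the upper limit of the study's methods. The same rule with a Cx3cr1 read in place of none gave 2648 Cx3cr1-positive cells for comparison.

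The cells came from the right hemisphere, less the cerebellum and olfactory bulb, of 4 male mice aged 9 months, 2 Abi3-/- and 2 Abi3+/+, dissociated in the cold and depleted of myelin. All 4 mice carried the 5XFAD transgenes, in which the neuronal Thy1 promoter drives mutant human amyloid precursor protein and presenilin 1, so amyloid is common to both genotypes and no mouse without it was profiled here. By the study's methods, Abi3-/- is a null allele made by targeting the gene locus and is not restricted to microglia, and the experimental males were heterozygous for a Trem2 variant of the SJL background. A targeted panel of 397 immune genes was sequenced with 1 library per mouse, so mouse and library cannot be told apart, and Abi3 was not among the panel genes, so its loss was not measured.

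Abi3-/- mouse 1 gave 68 of these cells, Abi3-/- mouse 2 gave 260, Abi3+/+ mouse 1 gave 131 and Abi3+/+ mouse 2 gave 224. The libraries held 61058416 to 102612276 reads in kept cells. These are reads after error correction and not molecules, so the intervals given below cover counting error only. Cell barcodes shared between pairs of libraries numbered 17 to 42 over all deposited cells, and 0 barcodes were members in both libraries of a pair. Single libraries stood apart in some genes. In Abi3-/- mouse 2, Qpct, an enzyme that modifies peptide ends, had a read in 43.5% of members against 2.94% in Abi3-/- mouse 1, 3.05% in Abi3+/+ mouse 1 and 2.23% in Abi3+/+ mouse 2. Lat2, a signalling adaptor, had a fewest positive value of 1 read in that library, against 9 or 10 in the other 3. Results below are also given without that library where it changed a call. C1qb, a complement component, was at 58715 and 12224 CPM (read counts scaled to a fixed total per mouse and cell set) in the members of Abi3-/- mice 1 and 2. It was at 36370 and 10681 CPM in those of Abi3+/+ mice 1 and 2, a wide split within both genotypes. C1qb was thus higher in the mouse numbered 1 of both genotypes. Whether mice with the same number shared a batch was not tested. The MHC class II gene H2-Aa was at 2828 CPM in Abi3-/- mouse 1 against 247, 267 and 400 CPM in the other 3.

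Microglial markers that the rule did not use were read in most of the cells. Of 8 microglial markers, all 8 had a read in 63.1% to 99.1% of the members. Each was read in a smaller share of members than of Cx3cr1-positive cells, as with Adgre1 at 63.1% against 81.3%. Their summed level was 221017 and 122528 CPM in members of Abi3-/- mice 1 and 2, against 249386 and 145038 CPM in Cx3cr1-positive cells. In Abi3+/+ mice 1 and 2 it was 144788 and 145815 CPM against 175518 and 165410 CPM, so it was lower in members of every mouse. C1qa, a complement component made by microglia, was read in 99.1% of members, Fcer1g, a signalling subunit of Fc receptors, in 99.1%, and Ly86, a Toll-like receptor partner, in 99%. Among further DAM markers, Cd9, a membrane tetraspanin, was read in 99.7% of members, Itgax, which encodes the integrin CD11c, in 57.8%, Lilrb4a, an inhibitory receptor, in 37.5%, and Csf1, a microglial growth factor, in 20.8%. Spp1, which encodes the secreted protein osteopontin, was read in 9.37%.

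Markers of other cells ranged from absent to frequent. All 5 natural killer cell markers and all 3 mast cell and basophil markers had no read, and 0 of 683 members allows a share of cells with a read of up to 0.439% (3 cells of the total), which does not bound expression below detection. The T cell receptor subunits Cd3d and Cd3g were also at 0, and the other T cell markers reached 0.586% at most. Of the B cell list, Ms4a1, Igkc and Vpreb3 were at 0, while Ighm was read in 68.7% of members and in 81.3% of Cx3cr1-positive cells. The macrophage and monocyte markers F13a1 and Cd163 were read in 2 members each (0.293%), and the most frequent of the 7 in that list, Fn1, in 2.20%. The summed level of the macrophage list was 20.3 and 179 CPM in Abi3-/- members and 126 and 197 CPM in Abi3+/+ members, against 33.8, 59.5, 38.6 and 90.9 CPM in the Cx3cr1-positive cells. It was thus higher in members in 3 of 4 mice. The 5 ependymal cell or astrocyte markers, each read in 0.732% to 2.05% of members, summed to 34.9, 215, 339 and 171 CPM in members of Abi3-/- mice 1 and 2 and Abi3+/+ mice 1 and 2 against 11.9, 141, 58.8 and 133 CPM, higher in members in all 4 mice. Mbp, a myelin protein and the 1 oligodendrocyte marker, was read in 15.7% of members and 24% of Cx3cr1-positive cells, and at 606, 377, 199 and 369 CPM against 474, 425, 415 and 487 CPM it was lower in members in 3 of 4 mice. Cells with a read of further T cell, B cell, neutrophil or macrophage genes were left out of both cell sets in 1 alternative. Of the 29 genes called between the cell sets below, 27 were also called there. The part of these cell types in the results was otherwise not tested. As a measure of reads in cells that should lack Trem2 and Apoe, 296 cells with a Cd3e read (median 16871.5 reads) had a Trem2 read in 9.12% and an Apoe read in 7.09%. A Cst7 read was found in 59.1% of them, so their share with all 3 DAM reads, 1.69%, is no background share for the rule. In 105 cells with reads of the neutrophil markers S100a8, S100a9 and Cxcr2, the shares were 10.5% for Trem2, 10.5% for Apoe, 1.90% for Cst7 and 0.952% for all 3.

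Absence of a Cx3cr1 read was more frequent in shallower cells. Median reads per cell were 23937.5, 20359.5, 23807 and 28005.5 in the members of Abi3-/- mice 1 and 2 and Abi3+/+ mice 1 and 2, against 32074, 29054, 31848.5 and 33994 in the Cx3cr1-positive cells. Median genes with a read were 70.5, 60, 55 and 65 in members and 86, 85, 81 and 80 in Cx3cr1-positive cells. The members were lower on both measures in each of the 4 mice. The reads per gene with a read lay closer, with medians of 331 to 442 in members and 347 to 426 in Cx3cr1-positive cells. At the edge of the rule, the lowest Cx3cr1 read counts in a positive cell were 8 to 11 by mouse, and 213 of 2648 positive cells (8.04%) had under 20 reads, so values between 0 and 8 did not occur.

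**Figure D1:**
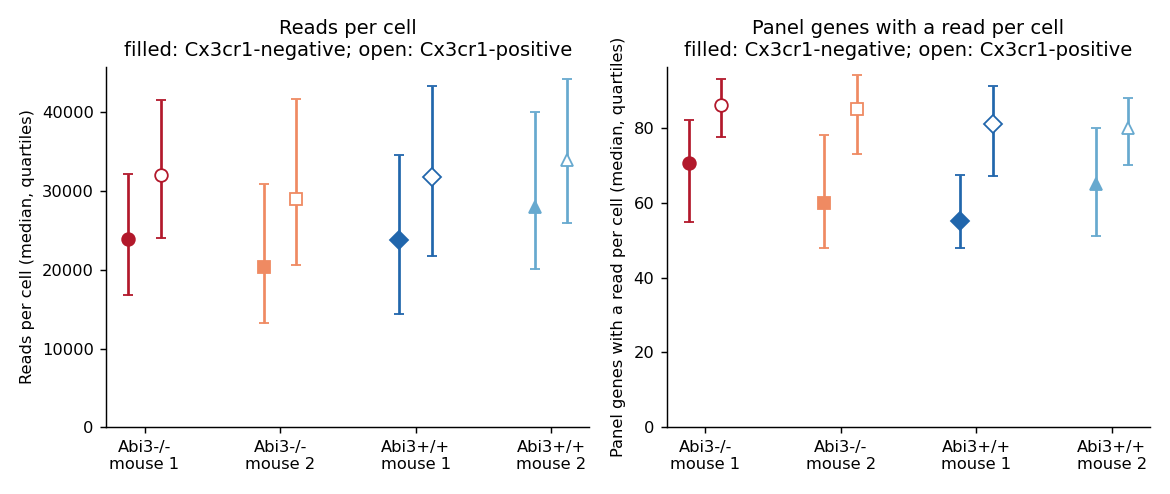
Reads per cell (left) and panel genes with a read per cell (right) for each mouse; points are medians and bars run from the lower to the upper quartile, filled for Cx3cr1-negative and open for Cx3cr1-positive cells. The Cx3cr1-negative medians lie below the positive ones in all 4 mice.

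The levels of the rule's own genes are given as a description. Trem2 was at 50565, 52745, 60809 and 63374 CPM of all panel reads in the members of Abi3-/- mice 1 and 2 and Abi3+/+ mice 1 and 2, and at 52794, 52081, 58556 and 65908 CPM in the Cx3cr1-positive cells, close to equal in each mouse. Apoe was at 24269, 10862, 16233 and 8473 CPM in members against 13323, 9114, 13438 and 7411 CPM. Cst7 was at 16674, 27705, 33423 and 31340 CPM in members against 11189, 17527, 22625 and 19170 CPM. Apoe and Cst7 were thus higher in the Cx3cr1-negative cells of every mouse, with no test made because reads of these genes chose the cells.

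How common the Cx3cr1-negative state was differed widely between mice. Among all cells with the 3 DAM reads, 9.41% had no Cx3cr1 read in Abi3-/- mouse 1 (exact 95% interval 7.38 to 11.8), 18.6% in Abi3-/- mouse 2 (16.6 to 20.7), 20.7% in Abi3+/+ mouse 1 (17.6 to 24.1) and 38.8% in Abi3+/+ mouse 2 (34.8 to 42.9). Both Abi3-/- values lay below both Abi3+/+ values, although Abi3-/- mouse 2 and Abi3+/+ mouse 1 had overlapping intervals. The means were 14% ± 6.5 (SD, n = 2) in Abi3-/- and 29.8% ± 12.8 (SD, n = 2) in Abi3+/+, a difference of -15.8 percentage points (two-sided exact permutation test, p = 0.333). This is the smallest p that 2 mice against 2 allow, so the design could not reach the threshold of 0.05. Without Abi3+/+ mouse 2 the difference was -6.69 percentage points.

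Depth changed this comparison in part. In cells with up to 20000 reads the Cx3cr1-negative share was 22.1% and 33.1% for Abi3-/- against 35.8% and 62.2% for Abi3+/+, and in cells with over 40000 reads it was 4.62% and 7.14% against 15.0% and 32%. The share was lower in the deepest bin than in the shallowest bin of every mouse. With equal weight for 4 bins of total reads, the shares were 10.9% and 18.2% for Abi3-/- against 20.7% and 41.3% for Abi3+/+. With equal weight for 4 bins of genes with a read they were 11.6% and 19.2% against 17.4% and 36.1%, and the genotypes then overlapped.

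Thinning each cell to 10999 reads before the rule was applied left out 59, 425, 287 and 113 kept cells that were too shallow, with 1, 43, 15 and 10 members among them, and gave 9.34% and 16.6% in Abi3-/- against 19.3% and 38% in Abi3+/+, with the genotypes apart. With 60 or more genes required per cell the shares were 6.70% and 11.5% against 10.6% and 29.7%, and with no upper limit on reads they were 8.0% and 16% against 14.6% and 33.8%. The genotypes overlapped under both of those limits.

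Other microglia showed the same ranking of the mice at the top. In cells with Trem2 and C1qa reads that lacked 1 or more of the DAM reads, 3.57% and 7.63% had no Cx3cr1 read for Abi3-/-, against 3.81% and 20.1% for Abi3+/+. Abi3+/+ mouse 2 was thus the highest in both kinds of cell, and the genotypes overlapped in the other microglia (difference of -6.37 percentage points, two-sided exact permutation p = 0.667). The share in cells with the DAM reads was 2.63, 2.44, 5.43 and 1.93 times that of the other microglia in Abi3-/- mice 1 and 2 and Abi3+/+ mice 1 and 2, so it was higher in all 4 mice. The other microglia had median reads of 17924 to 22705 per cell, below the DAM cells.

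**Figure D2:**
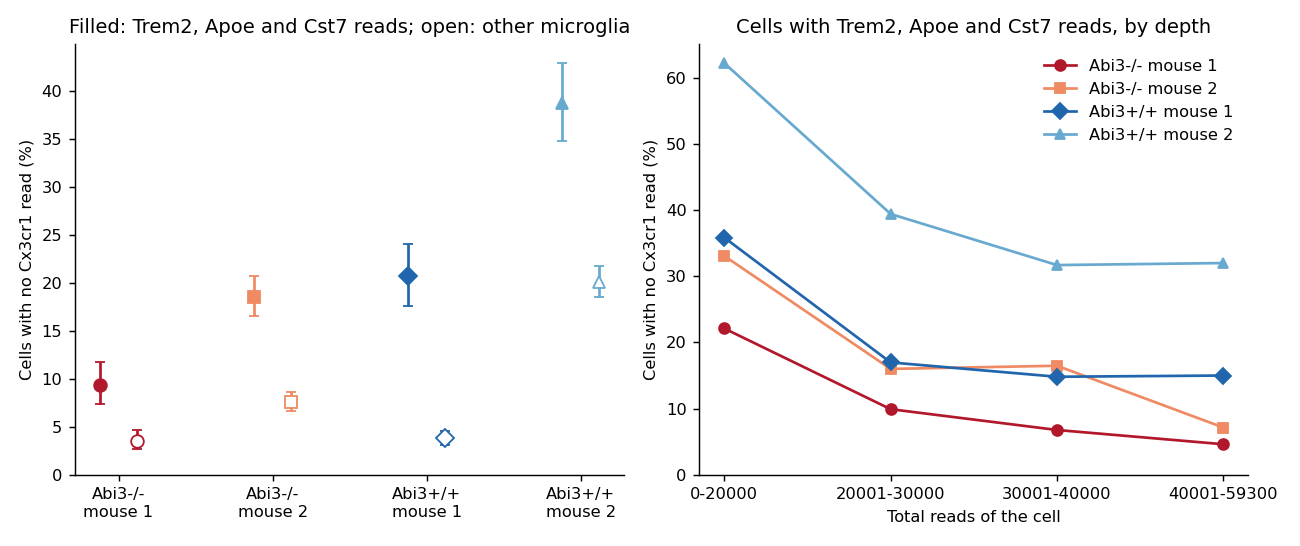
Left, percentage of cells with no Cx3cr1 read in each mouse, filled for cells with Trem2, Apoe and Cst7 reads and open for other microglia, with exact 95% binomial intervals; right, the same percentage for cells with the 3 DAM reads in 4 bins of total reads per cell. Abi3+/+ mouse 2 is highest in both panels and the share is lower in the deepest than in the shallowest bin of every mouse, without a steady fall across the 4 bins in 3 of the 4 mice.

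Measured against all kept cells, the members made up 2.93% and 5.78% for Abi3-/- against 3.45% and 6.99% for Abi3+/+, and the genotypes overlapped. The means were 4.35% ± 2.01 (SD, n = 2) and 5.22% ± 2.50 (SD, n = 2), a difference of -0.87 percentage points (two-sided exact permutation test, p = 0.667). It changed sign to 0.56 without Abi3-/- mouse 1 and to 0.90 without Abi3+/+ mouse 2. Cells with the 3 DAM reads, whether or not Cx3cr1 was read, were 31.2% and 31.1% of kept cells for Abi3-/- against 16.7% and 18% for Abi3+/+, a difference of 13.8 percentage points (two-sided exact permutation test, p = 0.333, the smallest possible). The members were thus a smaller part of a larger DAM group in the Abi3-/- mice.

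Within the same mouse, the Cx3cr1-negative cells had higher levels of 9 of 14 listed DAM genes and lower levels of 5 of 7 tested immediate early genes than the Cx3cr1-positive cells. Both lists were chosen with earlier results of these data known, so their counts are no independent support. Spp1 and the galectins Lgals1 and Lgals3, which are glycan-binding proteins, rose by 2.82 to 3.27-fold, and the ferritin heavy chain Fth1, the phospholipid-binding Anxa5 and the glycoprotein Cd52 rose by 1.56 to 1.66-fold. The transcription factor genes Egr1, Fosb, Junb and Jun fell by 1.89 to 2.02-fold. Reads were summed per mouse and cell set and tested with the mouse as a block (edgeR's quasi-likelihood test, Benjamini-Hochberg adjusted over 249 genes, threshold 0.05). Of 249 genes tested, 29 were called (11.6%), 12 of them higher (4.82%) and 17 lower (6.83%) in the Cx3cr1-negative cells, and all 29 had the same direction in all 4 mice. All values of one cell set lay above all values of the other for 10 of the 29 called genes and for 23 of the 249 tested (9.24%), so the sets overlapped for the other 19 called genes. The 7 genes of the rule were left out of this test, and 141 of the other panel genes had too few reads to be tested.

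These counts had limits. Without Abi3-/- mouse 2, 0 genes passed edgeR's adjusted threshold (47 at an unadjusted p under 0.05), without Abi3+/+ mouse 2, 12 did, and when the Cx3cr1-positive cells were weighted to the members' number of genes with a read 2 genes were called, Egr1 among them. The split by direction moved with the method. Without TMM scaling 8 genes were called higher and 48 lower, in limma on mean log-normalized reads 4 and 93, and in DESeq2 31 and 33. The direction of all 29 genes stayed the same in each of the 15 alternatives run.

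**Figure D3:**
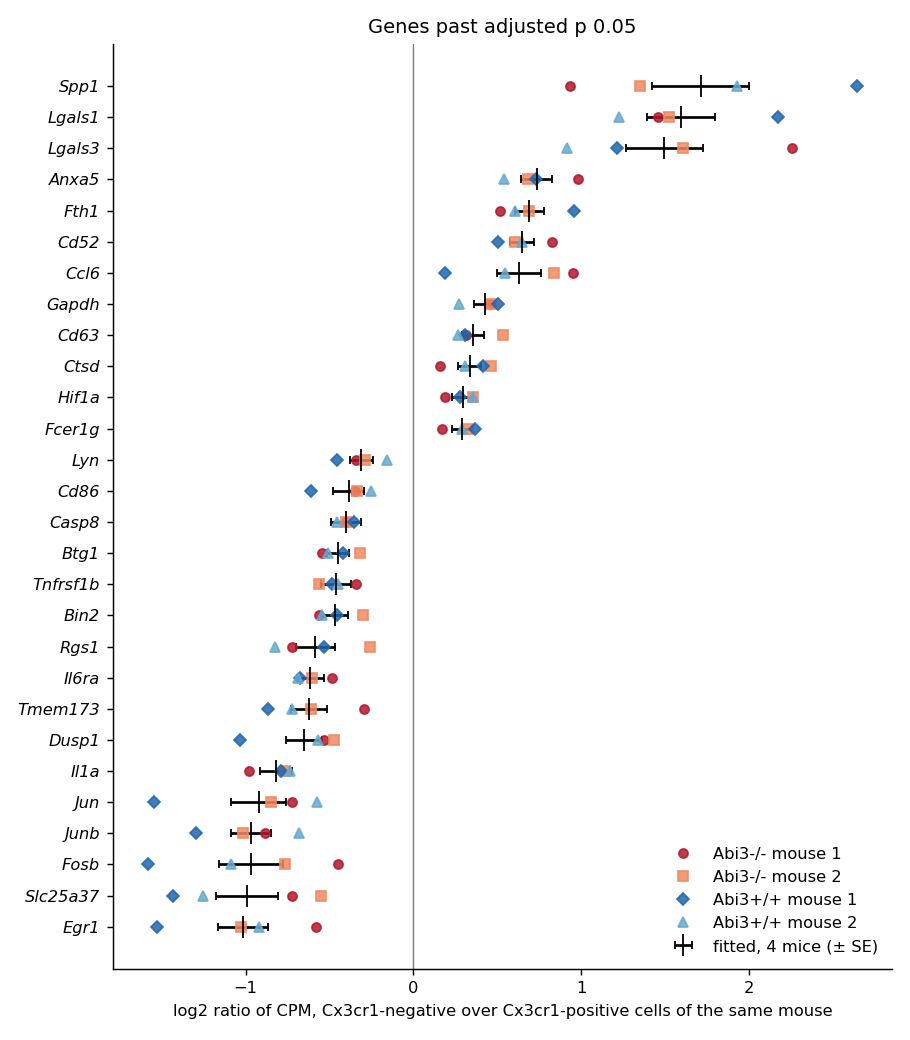
Called genes (28 of the 29 are drawn) with the log2 ratio of CPM in Cx3cr1-negative over Cx3cr1-positive cells on the horizontal axis; coloured points are the 4 mice and black bars the fitted log2 fold change ± SE. All 4 mice lie on the same side of 0 for each gene, from Spp1 at the top (fitted 1.71) to Egr1 at the bottom (-1.01).

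Spp1 had the highest fitted fold change of the 29. CPM here and below is over the tested genes and scaled by TMM within each comparison. Values of the same members thus differ between the cell set comparison and the genotype comparison. Spp1 was at 1008 and 1166 CPM in Abi3-/- members and at 1388 and 626 CPM in Abi3+/+ members, against 528, 457, 222 and 164 CPM in the Cx3cr1-positive cells. No Cx3cr1-positive value reached the lowest Cx3cr1-negative value. The fitted log2 fold change was 1.71 ± 0.29 (SE, adjusted p = 0.0161). Few cells carried these reads: Spp1 was read in 23.5%, 7.69%, 7.63% and 8.04% of members against 16.3%, 6.41%, 5.18% and 6.23% of Cx3cr1-positive cells, and 5 of the 64 members with a read held 49.7% of all their Spp1 reads. On the mean of log-normalized reads per cell, where single cells weigh less, Spp1 was not called (limma, adjusted p = 0.104, within a range of 1.36e-06 to 0.185 over the alternatives).

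Lgals3, a galectin found at damaged lysosomes, was at 957, 1146, 1048 and 1663 CPM in members of Abi3-/- mice 1 and 2 and Abi3+/+ mice 1 and 2, against 201, 376, 453 and 882 CPM. The cell sets did not overlap, and the log2 fold change was 1.49 ± 0.23 (SE, adjusted p = 0.0120). Lgals1 was at 387, 616, 1346 and 658 CPM against 141, 214, 298 and 282 CPM, also without overlap (1.59 ± 0.20, SE, adjusted p = 0.00745). Both were read in a minority of cells, Lgals3 in 123 members (18%) and Lgals1 in 91 (13.3%), and in 10.2% and 7.33% of Cx3cr1-positive cells. The 5 highest members held 29.4% of the Lgals3 reads and 22.5% of the Lgals1 reads.

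**Figure D4:**
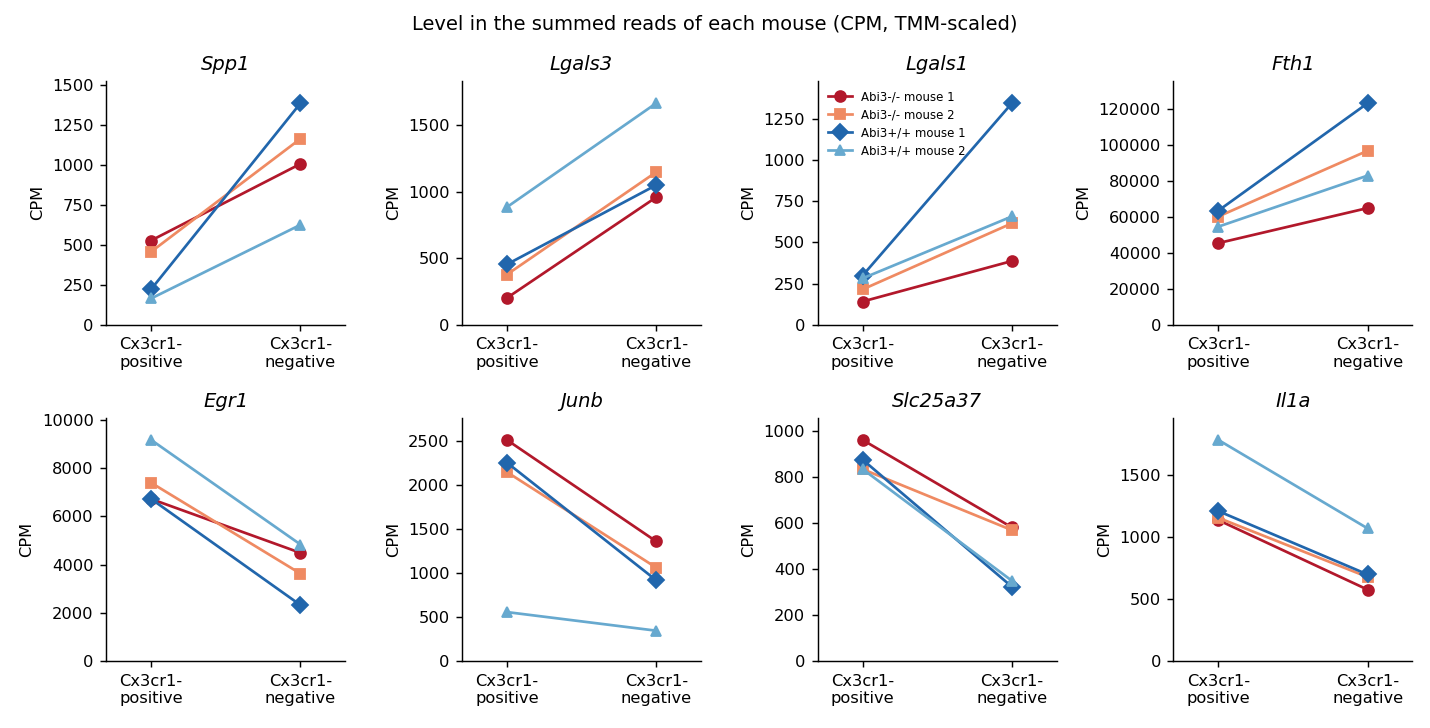
Level of 8 named genes in the summed reads of each mouse (CPM scaled by TMM, vertical axes from 0), with a line joining the Cx3cr1-positive and Cx3cr1-negative cells of the same mouse. The 4 lines rise for Spp1, Lgals3, Lgals1 and Fth1 and fall for Egr1, Junb, Slc25a37 and Il1a.

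Of the list of 14 DAM genes, 9 rose and none fell, beside 4.82% of all genes tested called higher. The list was chosen with earlier results of these data known, and the longer set of DAM markers that the paper compared was not used. In limma on the mean of log-normalized reads per cell 3 of the 14 were called higher (Lgals3, Fth1 and Ctsd) and Cd9 was called lower, with 4 genes called higher and 93 lower over all. Without TMM 6 of the 14 were called higher, and with the Cx3cr1-positive cells weighted to the members' number of genes with a read, 0 were in edgeR. The list's median log2 fold change was 0.60 against -0.13 over all 249 genes tested, and it was 0.21 in limma and 0.30 under that weighting. Without Abi3-/- mouse 2, 0 of the 14 were called in edgeR and the median was 0.62. Without Abi3+/+ mouse 2, 3 were called (Anxa5, Cd52 and Lgals3), without Abi3+/+ mouse 1, 6, and without Abi3-/- mouse 1, 10. The 9 called in the fit reported were Spp1, Lgals3, Anxa5, Fth1, Cd52, Ccl6, Cd63, Ctsd and Hif1a. Fth1, which stores iron, was at 64892, 96784, 123216 and 82942 CPM in members against 45377, 60158, 63422 and 54527 CPM, with a read in all cells of both sets. The sets did not overlap (0.69 ± 0.08, SE, adjusted p = 0.00745).

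Anxa5 rose by 0.73 ± 0.09 (log2, SE) and Cd52 by 0.65 ± 0.07, both at an adjusted p of 0.00745, and the chemokine Ccl6 rose by 0.63 ± 0.13 (adjusted p = 0.0282). The lysosomal genes Ctsd, a protease, and Cd63, a tetraspanin of late endosomes, rose by 0.34 ± 0.07 and 0.35 ± 0.07 (adjusted p = 0.0269 and 0.0215), and Hif1a, a factor of the response to low oxygen, rose by 0.29 ± 0.06 (adjusted p = 0.0282). Outside the DAM list, Gapdh, a glycolytic enzyme, rose by 0.42 ± 0.06 (adjusted p = 0.0107), and Fcer1g by 0.29 ± 0.06 (adjusted p = 0.0269). The other 5 DAM genes did not pass: Csf1 (0.57, adjusted p = 0.0605), Lyz2 (0.31, 0.0811), Itgax (0.36, 0.118), Lilrb4a (0.75, 0.124) and Cd9 (0.00, 0.999). Cd9 was at 25391, 35787, 23999 and 29340 CPM in members against 25902, 32509, 25650 and 29604 CPM, lower in members in 3 of 4 mice.

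Itgax, the integrin often used to mark DAM, had a read in 44.1%, 56.9%, 45.8% and 70.1% of members of Abi3-/- mice 1 and 2 and Abi3+/+ mice 1 and 2, against 44.3%, 55.3%, 52.2% and 64% of the Cx3cr1-positive cells. Its share was higher in members in 2 of 4 mice. Among the members, cells with an Itgax read were deeper than those without in each mouse, with medians of 29189.5 against 22510, 20877 against 17829.5, 30723.5 against 17986 and 33016 against 21373 reads. Itgax and Lilrb4a were read together in 16.2%, 26.2%, 21.4% and 29% of members against 11.3%, 27.4%, 23.1% and 30% of Cx3cr1-positive cells, a higher share in members in Abi3-/- mouse 1 and a lower one in the other 3.

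Immediate early genes, which are transcribed within minutes of a stimulus, were lower in the Cx3cr1-negative cells. Of 8 listed, 7 were tested and 5 fell, beside 6.83% of all genes tested called lower, with none rising, and all 7 fitted values were below 0 (median -0.92 against -0.13 over all genes tested). With the Cx3cr1-positive cells weighted to the members' number of genes with a read, 1 of the 7 was called (Egr1) and the median was -0.39. Without Abi3-/- mouse 2, 0 of the 7 were called in edgeR, while the median was -0.90. Egr1, a zinc finger transcription factor, was at 4489, 3631, 2329 and 4835 CPM in members against 6719, 7390, 6720 and 9163 CPM, without overlap (-1.01 ± 0.15, SE, adjusted p = 0.0107). The AP-1 subunits Junb (-0.97 ± 0.12, adjusted p = 0.00745), Fosb (-0.97 ± 0.19, adjusted p = 0.0245) and Jun (-0.92 ± 0.16, adjusted p = 0.0180) fell, as did Dusp1, a phosphatase that switches off MAP kinases (-0.65 ± 0.11, adjusted p = 0.0160). Over all mice pooled, Junb was read in 24.3% of members and 57.4% of Cx3cr1-positive cells, Jun in 32.2% and 62.9%, and Egr1 in 24.3% and 49.1%. The mice weigh differently in such pooled shares. Abi3+/+ mouse 2 gave 224 of 683 members and 353 of 2648 Cx3cr1-positive cells. Junb in its Cx3cr1-positive cells was at 559 CPM, the lowest of the mice, so part of the pooled Junb gap can come from this mix. Ier3 (-0.85, adjusted p = 0.0941) and Myc (-0.55, 0.268) did not pass, and Fosl1 had too few reads.

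Of the homeostatic microglia genes, 1 of 11 fell and none rose, beside 6.83% of all genes tested called lower. Fitted values were below 0 for 9 of the 11 (median -0.21), beside 155 of all 249 genes tested (median -0.13). Bin2, a protein of phagocytic and podosome membranes, fell by 0.47 on the log2 scale (SE 0.08, adjusted p = 0.0161). Values for the others included Selplg, the ligand of P-selectin, at -0.42 (adjusted p = 0.0546), Adgre1, which encodes F4/80, at -0.27 (0.0548), Maf at -0.71 (0.124) and C1qa at -0.05 (0.698).

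Other genes that fell were in none of the lists above. The interleukin 6 receptor gene Il6ra fell by 0.61, the tumour necrosis factor receptor gene Tnfrsf1b by 0.46 and Rgs1, which dampens G protein signalling, by 0.59 on the log2 scale (adjusted p = 0.00745, 0.0221 and 0.0245). Tmem173, which encodes the DNA-sensing adaptor STING, fell by 0.62 (adjusted p = 0.0161), Casp8, a caspase, by 0.40 (adjusted p = 0.0320) and Btg1, which restrains cell growth, by 0.45 (adjusted p = 0.0107).

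Il1a, an inflammatory cytokine, was at 577, 679, 699 and 1070 CPM in members against 1137, 1156, 1210 and 1782 CPM, without overlap (-0.82 ± 0.09, SE, adjusted p = 0.00745). Slc25a37, the mitochondrial iron importer, fell by 0.99 (SE 0.18, adjusted p = 0.0215), and it was read in 13.5% of members and 37% of Cx3cr1-positive cells. It is also a marker of erythroid cells, whose other listed marker, Alas2, was read in 0 members and in 3 of 2648 Cx3cr1-positive cells. The kinase Lyn (-0.31, adjusted p = 0.0380) and the costimulatory Cd86 (-0.39, adjusted p = 0.0461) also fell and were named after their values were seen.

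Other lists gave few or no calls, and with 11.6% of all genes tested called, the counts of 1 or 2 calls in a list are given as values and are no result for the list. Of 15 chemokines and cytokines, Ccl6 rose and Il1a fell, while Ccl3 (-0.07, adjusted p = 0.824), Ccl4 (-0.33, 0.323) and Tnf (-0.63, 0.179) did not pass. None of 7 MHC genes passed edgeR's adjusted threshold, with H2-Aa at 1.21 (adjusted p = 0.197) and Cd74 at 0.49 (0.179), and the MHC list's median was 0.49. None of 12 Toll-like receptor genes (median -0.25), 9 inhibitory receptors and ligands (median -0.05) or 9 cell cycle genes (median 0.49) passed. Mki67 and Top2a, which mark dividing cells, were read together in 6 members (0.878%) and 8 Cx3cr1-positive cells (0.302%). In the remaining lists the calls included Tmem173 of 10 interferon genes, Fcer1g of 6 complement and Fc receptor genes, Ctsd and Cd63 of 5 lysosomal genes and Fth1 of 4 iron and heme genes.

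The promoters of Cx3cr1, of Spp1 as the gene with the highest fitted fold change, and of Dusp1 as an immediate early gene that fell are shown from RefSeq on GRCm38.p6, from 250 bases before to 50 bases after the start, on the strand of the gene. They lie at chr9:120068247-120068546 (minus strand), chr5:104434861-104435160 (plus strand) and chr17:26508423-26508722 (minus strand). Capitals mark matches to GAGGAAGT, a form bound by the myeloid factor PU.1, in Spp1, and to TGACGTCA, the cyclic AMP response element, in Dusp1. The table holds a second Spp1 window, at chr5:104435942-104436241, and that window and the Cx3cr1 window held none of the 4 motifs searched.
Cx3cr1: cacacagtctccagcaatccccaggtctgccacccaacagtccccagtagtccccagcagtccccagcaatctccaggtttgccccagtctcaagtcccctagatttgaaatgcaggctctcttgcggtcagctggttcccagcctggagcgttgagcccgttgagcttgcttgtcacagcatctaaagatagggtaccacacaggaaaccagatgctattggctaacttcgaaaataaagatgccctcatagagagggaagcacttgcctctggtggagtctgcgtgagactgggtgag
Spp1: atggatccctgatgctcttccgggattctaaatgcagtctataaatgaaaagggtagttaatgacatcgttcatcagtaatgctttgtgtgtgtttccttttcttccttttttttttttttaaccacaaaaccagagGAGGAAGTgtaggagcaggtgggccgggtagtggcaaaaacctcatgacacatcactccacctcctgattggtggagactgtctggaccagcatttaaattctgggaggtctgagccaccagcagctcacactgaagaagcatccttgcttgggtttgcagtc
Dusp1: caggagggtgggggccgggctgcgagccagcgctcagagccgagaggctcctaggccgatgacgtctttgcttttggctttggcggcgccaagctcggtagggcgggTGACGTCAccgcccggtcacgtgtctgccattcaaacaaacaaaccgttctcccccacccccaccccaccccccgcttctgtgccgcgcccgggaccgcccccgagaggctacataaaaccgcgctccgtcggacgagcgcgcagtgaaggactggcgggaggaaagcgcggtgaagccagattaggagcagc

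These motifs were searched on both strands of these windows, and 19 of the 29 called genes had an entry. GAGGAAGT was in 1 of 10 matched genes that rose (Spp1), 0 of 9 that fell and 3.69% of the 27025 genes in the table. TGACGTCA was in 1 of 9 that fell (Dusp1), 0 of 10 that rose and 2.03% of all. The AP-1 site TGANTCA was in Il1a alone of the 19, against 8.97% of all, and TCACGTGA, the site of lysosomal gene regulators, was in Ctsd alone, against 1.12%. At 1 gene each, these counts are a description of the windows.

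Abi3 genotype gave 1 call within the Cx3cr1-negative cells, and that call is no result for genotype. Mmp12, the macrophage elastase, was read in 3 of 68 and 5 of 260 Abi3-/- members and in 0 of 131 and 0 of 224 Abi3+/+ members (edgeR's quasi-likelihood test, adjusted p = 0.0149). It was thus the 1 of 243 genes tested that was called (0.412%), and 8 genes had an unadjusted p under 0.05. In limma on the mean of log-normalized reads per cell 0 of 272 genes were called, so Mmp12 did not pass there. The edgeR call rested on 8 cells, of which 5 held 90.5% of the reads, set against 0 reads in both Abi3+/+ mice. The test therefore cannot show a difference between genotypes, and no fold change is given. In the Cx3cr1-positive cells Mmp12 was at 0 and 86.5 CPM for Abi3-/- against 2.49 and 127 CPM for Abi3+/+, on the scale of the cell set comparison. The genotypes thus overlapped there and Abi3+/+ mouse 2 was the highest (interaction adjusted p = 0.950 in edgeR). Leaving out a mouse leaves 1 genotype with 1 mouse, which is then assumed to vary like the remaining pair. Such fits called 0 genes without Abi3+/+ mouse 1 or without mouse 2 (8 and 9 at an unadjusted p under 0.05), 23 without Abi3-/- mouse 2 and 3 without Abi3-/- mouse 1.

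The genes next in order of p, with the genotypes apart, are given as values because none passed. The genotypes were apart in 81 of the 243 genes tested (33.3%), so the lack of overlap is no result for the genes named. Cd74, the invariant chain of MHC class II, was at 2169 and 1455 CPM in the Abi3-/- members and 779 and 468 CPM in the Abi3+/+ members (log2 fold change 1.54 ± 0.38, SE, adjusted p = 0.789). It was read in 25% and 33.1% against 16.8% and 15.2% of members. The chemokine Ccl9 was at 2437 and 1321 CPM against 929 and 528 CPM (1.37, adjusted p = 0.963), and Fscn1, an actin-bundling protein, at 2912 and 2917 CPM against 2071 and 1418 CPM (0.74, adjusted p = 0.978). Tgfb3, a growth factor, was read in 1 and 7 members against 0 and 0.

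In the other direction, Ier3, an immediate early gene, was at 513 and 909 CPM in Abi3-/- members against 1212 and 2539 CPM in Abi3+/+ members (-1.40 ± 0.47, SE, adjusted p = 0.978). Lgals1 was at 348 and 560 CPM against 1352 and 625 CPM (-1.12), Thbs1, which encodes a matrix glycoprotein, at 31.7 and 94.9 CPM against 502 and 125 CPM (-2.30), and Il3ra, a cytokine receptor chain, at 343 and 831 CPM against 1332 and 1081 CPM (-1.04), each at an adjusted p of 0.978. Clec10a, a macrophage lectin, was read in 0 and 0 members against 1 and 2. Qpct was at 65 and 1244 CPM against 94.6 and 43.2 CPM, so its difference lay in Abi3-/- mouse 2 alone.

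**Figure D5:**
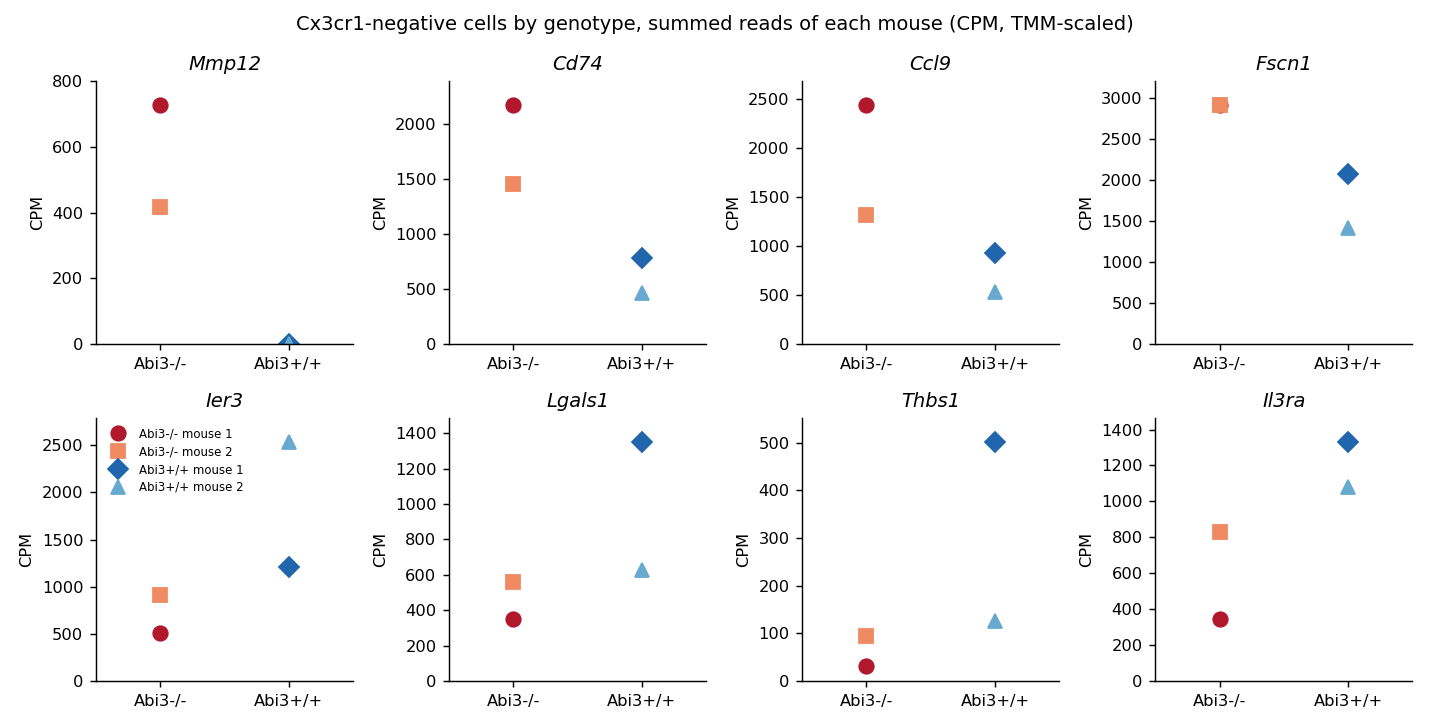
Level of 8 genes, named because their genotypes were apart, in the summed reads of the Cx3cr1-negative cells of each mouse (CPM scaled by TMM, vertical axes from 0), by genotype, with 1 point per mouse. The genes were picked for genotypes that do not overlap, which held for 81 of the 243 genes tested. Of the 8 genes Mmp12 passed the adjusted threshold, with no read in Abi3+/+ members, so its call is no result for genotype.

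The lists are described by their genes' fitted values between genotypes, with no test of a list. Of 14 DAM genes, 2 had fitted values above 0 and 12 below (median -0.30 against -0.04 over 243 genes), and none was called, with the lowest adjusted p at 0.978. The 7 MHC genes had 6 values above 0 (median 1.05, lowest adjusted p 0.789). Without Abi3-/- mouse 1, 5 of the 7 were above 0, the median was 0.12 and H2-Aa turned to -0.36. Without Abi3-/- mouse 2, which leaves mouse 1 as the lone Abi3-/- mouse, the median was 1.60 and the lowest adjusted p in edgeR was 4.46e-09. The 7 immediate early genes had 2 above 0 (median -0.16) and the 11 homeostatic genes 6 above 0 (median 0.09). Spp1 was at 906 and 1060 CPM in Abi3-/- members against 1395 and 595 CPM in Abi3+/+ members, with overlap, and Itgax at 1934 and 4069 CPM against 3488 and 5916 CPM, also with overlap.

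Whether the genotype difference itself differed between Cx3cr1-negative and Cx3cr1-positive cells was tested as an interaction over 274 genes. It gave 0 calls in edgeR (0%), with 11 genes at an unadjusted p under 0.05, and 4 calls in DESeq2. Among genes named above, Spp1 had an interaction log2 value of -1.13 (adjusted p = 0.950) and Lgals3 of 0.88 (0.950). Without Abi3+/+ mouse 2 the count in edgeR was 11.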

How the data were processed

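The authors ran the BD Rhapsody Targeted Analysis Pipeline with its defaults, and the counts deposited for 4 mice are whole reads of each gene in each cell after distribution-based error correction. The genome build mm10 is from the submitters' processing notes, and the pipeline's version was not given in the sources used here. No library was a copy of another by its counts.

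Cells with 40 or more genes with a read and no more reads than the upper limit in the study's methods were kept, the first limit being read as genes. No doublet caller was run. The members and gene lists were chosen with earlier results of these data known. Reads were summed per mouse and cell set, filtered (filterByExpr), TMM-scaled and tested with edgeR 4.0.16 in R 4.3.3 (quasi-likelihood, Benjamini-Hochberg, threshold 0.05), with the mouse as a block between cell sets. The method was tested on simulated data. The mouse was the replicate, 2 per genotype. Shares were compared by exact permutation tests in Python 3.11.15 and have exact (Clopper-Pearson) 95% intervals. Alternatives were DESeq2 1.42.0, limma 3.58.1 on mean log-normalized reads, no TMM, no filter, thinning, other limits and lineage genes, weighting by reads, and leaving out each mouse. Weighting by genes and equal weight over depth bins were chosen after seeing the data. Named genes were up to 15 per direction by adjusted p with the same direction in 4 mice for cell sets, for genotype the called genes or otherwise up to 5 per direction with the genotypes apart, list members, and Qpct and Lat2. The paper's other assays were not used here, and some panel genes are not reported here.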

Additional observations from a re-analysis of the deposited data

How the results depend on the processing

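Against 29 calls between the cell sets, library size without TMM gave 56, DESeq2 64, limma on mean log-normalized reads 97, and weighting the Cx3cr1-positive cells to equal reads 47. Weighting to equal genes with a read, chosen after seeing the data, gave 2, and the fit with no mouse block gave 0 (27 at an unadjusted p under 0.05). Leaving out each mouse gave 0 to 30, with 0 without Abi3-/- mouse 2 and 12 without Abi3+/+ mouse 2. The cause was not tested. Of the calls, 41.4% were higher in Cx3cr1-negative cells in the fit reported, against 14.3% without TMM, 4.12% in limma and 48.4% in DESeq2. Without TMM the median log2 fold change over all genes was -0.30 in place of -0.13. All 29 genes kept their direction in all 15 alternatives, and thinning kept 24 of them as calls.

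Within the members, genotype gave 1 call, 3 in DESeq2, 0 in limma (8 at an unadjusted p under 0.05), and 0 to 23 when each mouse was left out, with the lone mouse assumed to vary like the other pair. The 1 call was Mmp12, which had no read in Abi3+/+ members, so it is no result for genotype. With a replicate block the count was 1. Deviations from the genotype mean in the mice numbered 1 had r = -0.02 over 243 genes. This correlation cannot show whether mice with the same number were handled together. Members were a larger part of kept cells in mouse 2 than in mouse 1 of both genotypes. The shares were 5.78% against 2.93% for Abi3-/- and 6.99% against 3.45% for Abi3+/+. The interaction gave 0 calls in edgeR, 4 in DESeq2 and 0 to 11 when each mouse was left out. The difference in members among all kept cells, -0.87 percentage points, ranged from -2.64 to 0.90 and reversed to 0.56 without Abi3-/- mouse 1 and to 0.90 without Abi3+/+ mouse 2. The Cx3cr1-negative share of DAM cells stayed lower in Abi3-/-, by -24.8 to -6.69 percentage points when each mouse was left out. A minimum of 5 reads gave identical cells. At 2 mice per genotype, shares could not reach a p of 0.05.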

Other observations

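Among the Cx3cr1-negative cells, those with reads of Cd74, H2-Aa and H2-Ab1 together, which encode parts of MHC class II presentation, numbered 9 of 68 (13.2%, exact 95% interval 6.23 to 23.6) in Abi3-/- mouse 1, 6 of 260 (2.31%) in Abi3-/- mouse 2, 5 of 131 (3.82%) in Abi3+/+ mouse 1 and 3 of 224 (1.34%) in Abi3+/+ mouse 2. The genotypes overlapped. The same mouse had the highest share in its Cx3cr1-positive cells, at 8.40% against 0.967%, 2.59% and 0.567%.

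The inflammatory chemokines Ccl3 and Ccl4 were read together in 11.8% and 31.9% of members of the Abi3-/- mice and in 38.2% and 41.1% of members of the Abi3+/+ mice. In the Cx3cr1-positive cells the shares were 24% and 40.4% against 49.8% and 41.4%. Members were lower in both Abi3-/- mice and in Abi3+/+ mouse 1, and close to equal in Abi3+/+ mouse 2. In summed reads Ccl3 was at 2461, 8572, 9109 and 8543 CPM in members of Abi3-/- mice 1 and 2 and Abi3+/+ mice 1 and 2. The Cx3cr1-positive values were 3687, 7102, 9854 and 7727 CPM, so Ccl3 was higher in members of both mice numbered 2. Ccl4 went the same way as Ccl3 in each mouse. Members were also shallower in each of the 4 mice, and the part of depth was not tested.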
